A study of Mus musculus with 8 samples.

Results

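Classical MHC class II molecules are surface complexes of an alpha and a beta chain that show peptides from engulfed material to CD4 T cells. The 9 genes described here are 4 chains of that complex (H2-Aa, H2-Ab1, H2-Eb1 and H2-Eb2), the invariant chain Cd74, the transactivator Ciita and the RFX subunits Rfx5, Rfxap and Rfxank. They were taken by gene name from the probes of the array, which gave 17 probes of 56605 in all, and all 9 genes and 17 probes passed the filter on dim probes, as did 27997 of 36994 gene names. The samples were macrophages sorted by flow cytometry from implanted pancreas tumours, as 4 MHCII-high and 4 MHCII-low samples with 1 array each. Per the labels both groups came from female mice of strain FvBn aged 8 to 10 weeks, the genotype was not provided, and no gate other than MHCII is given. The series' text names wild-type, KPC and FLT3-CRE/LSL-YFP mice without tying any of the 8 samples to them. Numbers 20435, 20436, 20439 and 20442 occur in the labels of both groups, and values below follow that order. Whether these were different animals is not stated, and p-values reflect only the spread between samples, which may be technical.

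Newly made alpha and beta chains pair in the endoplasmic reticulum around the invariant chain, which blocks the groove and guides the complex to endosomes, where peptide takes its place. Transcription of these chains depends on a conserved X box and Y box upstream of each gene. The RFX complex of Rfx5, Rfxap and Rfxank binds the X box, NF-Y binds the Y box, and CIITA, which does not bind DNA by itself, docks on these factors and switches the genes on. RFX and NF-Y are made in most cells, while CIITA is made mainly in antigen-presenting cells and after interferon gamma. The sort read MHC class II protein at the surface, so that the surface chains were higher in MHCII-high is a check on the labels rather than a result.

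RefSeq promoters of build GRCm38.p6, from strain C57BL/6J, matched 5 of the 9 genes, and those of 3 chains are shown because they carry the X and Y motifs that CIITA's partners read. The 250 bases before the annotated start are given for H2-Aa (chr17:34287824-34288073, minus strand), H2-Eb1 (chr17:34305617-34305866, plus strand) and H2-Eb2 (chr17:34325425-34325674, plus strand), with GCAAC, a core of the X box, and the GATTGG that follows it, the core of the Y box, in capitals. Further copies, 2 of GCAAC in H2-Eb2 and 1 of GATTGG on the other strand in H2-Eb1, are left in lower case.
H2-Aa: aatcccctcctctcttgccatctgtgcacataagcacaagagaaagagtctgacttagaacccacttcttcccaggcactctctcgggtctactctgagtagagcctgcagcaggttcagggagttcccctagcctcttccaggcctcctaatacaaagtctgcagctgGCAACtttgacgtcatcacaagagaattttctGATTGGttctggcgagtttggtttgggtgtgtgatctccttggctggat
H2-Eb1: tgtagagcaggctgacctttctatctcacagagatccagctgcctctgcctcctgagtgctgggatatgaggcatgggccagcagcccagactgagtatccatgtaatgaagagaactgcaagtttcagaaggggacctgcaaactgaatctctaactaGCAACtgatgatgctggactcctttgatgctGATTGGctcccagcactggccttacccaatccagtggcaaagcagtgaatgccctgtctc
H2-Eb2: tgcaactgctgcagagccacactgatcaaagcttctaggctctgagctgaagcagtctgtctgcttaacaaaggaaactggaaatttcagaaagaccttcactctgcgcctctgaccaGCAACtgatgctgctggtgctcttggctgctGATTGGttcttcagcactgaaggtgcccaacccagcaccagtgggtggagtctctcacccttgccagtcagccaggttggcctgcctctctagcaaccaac

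The marked motifs lay 27 bases apart in H2-Aa and 26 bases apart in H2-Eb1 and H2-Eb2, with GCAAC beginning 81, 91 and 132 bases before the start in the order H2-Aa, H2-Eb1, H2-Eb2. GCAAC followed by GATTGG after 20 to 35 bases, on either strand, was found in 0.24% of 32851 promoters of the same length, or 79 of them. GCAAC alone was in 29.9% and GATTGG alone in 14.6%. The promoters of Rfx5 and Rfxank held no such arrangement. H2-Aa also held TGACGTCA, found in 1.55% of promoters. The motifs were chosen after these promoters had been read, and a match describes letters only.

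Array quality and macrophage markers were checked on every array. No spot was saturated, and 68.5% to 74.4% of the probes on an array stood well above background. Pairs of arrays correlated across genes (not independent replicates) at 0.950 to 0.971 in MHCII-high, 0.951 to 0.968 in MHCII-low and 0.908 to 0.961 across groups. All 7 macrophage markers, among them the growth factor receptor Csf1r and the lysosomal protein Cd68, were well above background on every array, but so were 9 of 10 dendritic cell, 6 of 7 B cell, 3 of 4 T cell and 4 of 4 epithelial markers, so detection alone does not mark the cells. In limma's fit of 27997 genes 750 (2.68%) were higher and 630 (2.25%) lower in MHCII-high at an adjusted p of 0.05, and the groups did not overlap, with MHCII-high above, for 7.48% of genes.

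Of the 9 genes, Ciita, H2-Eb1, H2-Ab1, H2-Aa and Cd74 were higher in MHCII-high in limma's fit, against 2.68% of all genes, and none was lower. H2-Eb2, Rfx5, Rfxap and Rfxank did not pass. The same 5 genes were those whose groups did not overlap at their brightest probe, and of the 17 probes 12 did not overlap, with MHCII-high above, against 7.58% of all probes kept. These 12 include 1 probe of H2-Eb2 and 2 of Ciita that passed the filter on dim probes only with the help of MHCII-high arrays. The median log2 difference of the 9 was 1.07, beside 0.0021 over all genes tested. Levels below are log2 signals relative to the 75th percentile of the same array, so that 0 is the brightness that 3 in 4 spots stay under. Probes differ in how well they bind and label, so the level of one gene is not ranked against that of another.

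**Figure D1:**
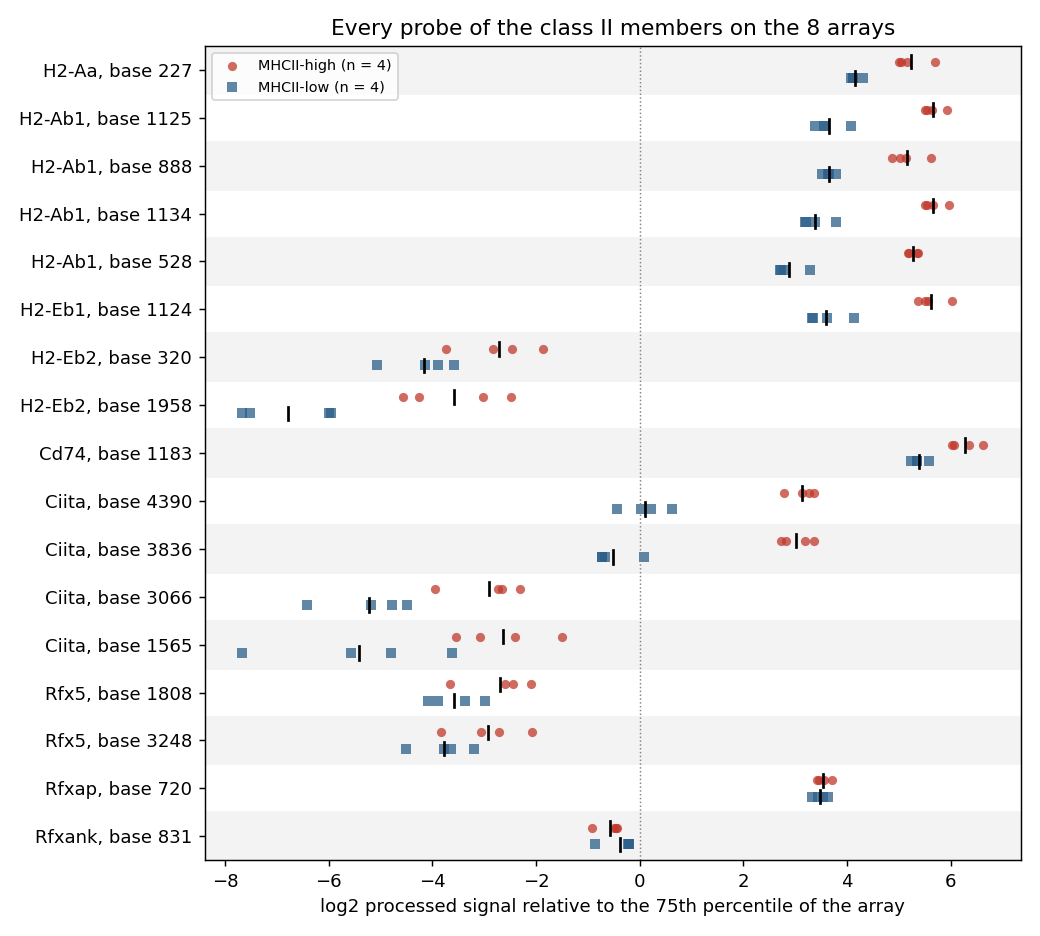
Log2 processed signal relative to the 75th percentile of the array for the 17 probes of the 9 genes, named by gene and by the base of the transcript at which the probe starts; circles are MHCII-high samples, squares MHCII-low samples (n = 4 each) and ticks the means. The groups are apart for 12 probes, among them all 4 of H2-Ab1 and all 4 of Ciita, and overlap at Rfx5, Rfxap, Rfxank and 1 probe of H2-Eb2.

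The A molecule is made of the chains of H2-Aa and H2-Ab1. H2-Aa, the alpha chain, had log2 levels of 5.17, 5.04, 5.01 and 5.70 in MHCII-high, against 4.08, 4.12, 4.12 and 4.30 in MHCII-low. MHCII-high 20442 was the highest, and the lowest MHCII-high sample lay 0.71 above the highest MHCII-low sample. The difference was 2.11-fold (95% interval 1.58 to 2.81, limma adjusted p = 0.0159). H2-Aa kept this call in 15 of 17 other settings and lost it with a block for the row of the slide (log2 0.96, adjusted p = 0.0756) and without MHCII-low 20435 (adjusted p = 0.0511). Its only probe is printed with the H2-Ab1 probe that showed the largest shift. They lie on mm9 at chr17:34421285-34421344 (minus strand, from base 227 of the transcript) and chr17:34404357-34404416 (plus strand, from base 528).
H2-Aa: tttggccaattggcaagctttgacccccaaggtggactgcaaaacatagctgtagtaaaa
H2-Ab1: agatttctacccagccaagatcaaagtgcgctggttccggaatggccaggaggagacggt

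H2-Ab1, the beta chain, had 4 probes, and all 4 passed by themselves in limma's fit of 41179 probes, of which 2.77% were higher in MHCII-high. At its brightest probe, from base 1125, log2 levels were 5.64, 5.50, 5.54 and 5.93 in MHCII-high, against 3.58, 3.39, 4.09 and 3.56 in MHCII-low. The probe from base 528 gave 5.35, 5.19, 5.18 and 5.37 in MHCII-high, against 2.78, 2.73, 3.28 and 2.70 in MHCII-low. The one from base 888 gave 5.14, 5.03, 4.86 and 5.62 in MHCII-high, against 3.51, 3.64, 3.78 and 3.66 in MHCII-low. MHCII-low 20439 was the highest MHCII-low sample at each of these probes, and the groups did not overlap at any of them.

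Probes of H2-Ab1 disagreed on the size of the difference. It was 5.27-fold at base 528, 4.85-fold at base 1134, 3.99-fold at base 1125 and 2.86-fold at base 888. The probe from base 528 showed a larger difference than that from base 888 within every label number, at 2.57 against 1.62 for 20435, 2.46 against 1.39 for 20436, 1.90 against 1.08 for 20439 and 2.67 against 1.96 for 20442. Probes from bases 1125 and 1134 overlap by 51 bases and differ there at 1 base, T51C counted from the 5′ end of the probe from base 1125. The stretch around that base is shown with it in capitals, from probes on mm9 at chr17:34406296-34406355 and chr17:34406305-34406363, both on the plus strand.
H2-Ab1 base 1125: caaataaacgagacTcagactctg
H2-Ab1 base 1134: caaataaacgagacCcagactctg

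With either letter the groups were far apart. The probe with C gave 5.67, 5.54, 5.50 and 5.97 in MHCII-high, against 3.19, 3.21, 3.78 and 3.38 in MHCII-low. Which letter the FvBn mice carry was not tested.

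H2-Eb1, a beta chain of the E molecule, read 5.56, 5.50, 5.37 and 6.04 in MHCII-high, against 3.35, 3.32, 4.14 and 3.61 in MHCII-low (log2 levels). It was 4.03-fold higher (95% interval 2.79 to 5.81, limma adjusted p = 0.00422), close to the 3.99-fold (2.96 to 5.39, adjusted p = 0.00184) of H2-Ab1 at its brightest probe. MHCII-high 20442 and MHCII-low 20439 stood highest in their groups for both genes. The H2-Eb1 probe lies at chr17:34453075-34453134 on mm9.

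H2-Eb2, a second E beta gene next to H2-Eb1, was dim and had 2 probes. From base 320, log2 levels were -3.73, -2.83, -2.46 and -1.86 in MHCII-high, against -3.58, -3.89, -4.15 and -5.06 in MHCII-low, and the groups overlapped (difference 1.45, limma adjusted p = 0.110). From base 1958, they were -4.26, -2.47, -3.03 and -4.56 in MHCII-high, against -7.67, -6.00, -5.95 and -7.52 in MHCII-low. On 4 of 4 MHCII-high and 0 of 4 MHCII-low arrays that second probe stood well above background. The difference is therefore given as a bound, 3.49-fold or more by the means, which takes no account of the spread between samples. That probe passed the filter on dim probes only through MHCII-high, where it is brighter, so no p is given for it. This bound sets the MHCII-high mean against, per MHCII-low array, the probe's own signal or, where higher, the dimmest signal counted as well above background. H2-Eb2 did not pass by its brightest probe, whose difference was 0.72 with normexp background correction (adjusted p = 0.112).

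Cd74, the invariant chain on chromosome 18, had a raw signal of at most 50.7% of the scanner's saturation value. Its log2 levels were 6.36, 6.02, 6.07 and 6.63 in MHCII-high, against 5.35, 5.23, 5.36 and 5.58 in MHCII-low. The groups stood 0.44 apart at their nearest samples. Cd74 was 1.85-fold higher (95% interval 1.40 to 2.45, limma adjusted p = 0.0283), a smaller step than that of H2-Ab1 or H2-Eb1. The call was lost in 6 of 8 fits with 1 sample left out (adjusted p up to 0.0782; it was kept without MHCII-high 20436 and without MHCII-low 20442), and with the row block (log2 0.74, adjusted p = 0.111). Among the brightest 1% of genes 0.357% were called higher in MHCII-high, and Cd74 was that 1 gene of 280.

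Ciita had the largest shift of the 9 genes at their brightest probes. At that probe, from base 4390 (chr16:10526458-10526517 on mm9), log2 levels were 3.13, 2.78, 3.36 and 3.28 in MHCII-high, against 0.03, 0.22, 0.62 and -0.43 in MHCII-low. In linear terms these are 8.80 times the array's 75th percentile in MHCII-high and 1.08 times in MHCII-low, by the mean of the log2 values. It was 8.15-fold higher (95% interval 5.56 to 11.9, limma adjusted p = 0.000883), and 0.496% of all genes had a difference as large or larger toward MHCII-high. Ciita kept its call in 17 of 17 other settings, with log2 differences of 2.85 to 3.20.

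All 4 Ciita probes pointed the same way. The probe from base 3836 gave 2.72, 2.83, 3.18 and 3.37 in MHCII-high, against -0.72, -0.68, 0.09 and -0.73 in MHCII-low (difference 3.53, limma adjusted p = 0.000439 over all probes). The other 2 probes, placed by the files on 2 further transcript records, were dim. The one from base 3066 gave 2.30 and was well above background on 4 MHCII-high and 3 MHCII-low arrays. That from base 1565 gave 2.79, and was so on 4 MHCII-high and 2 MHCII-low arrays. Its MHCII-low levels spread from -7.67 to -3.63. Both dim probes passed the filter only with the help of MHCII-high arrays, where they are brighter, so no p is given for them.

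**Figure D2:**
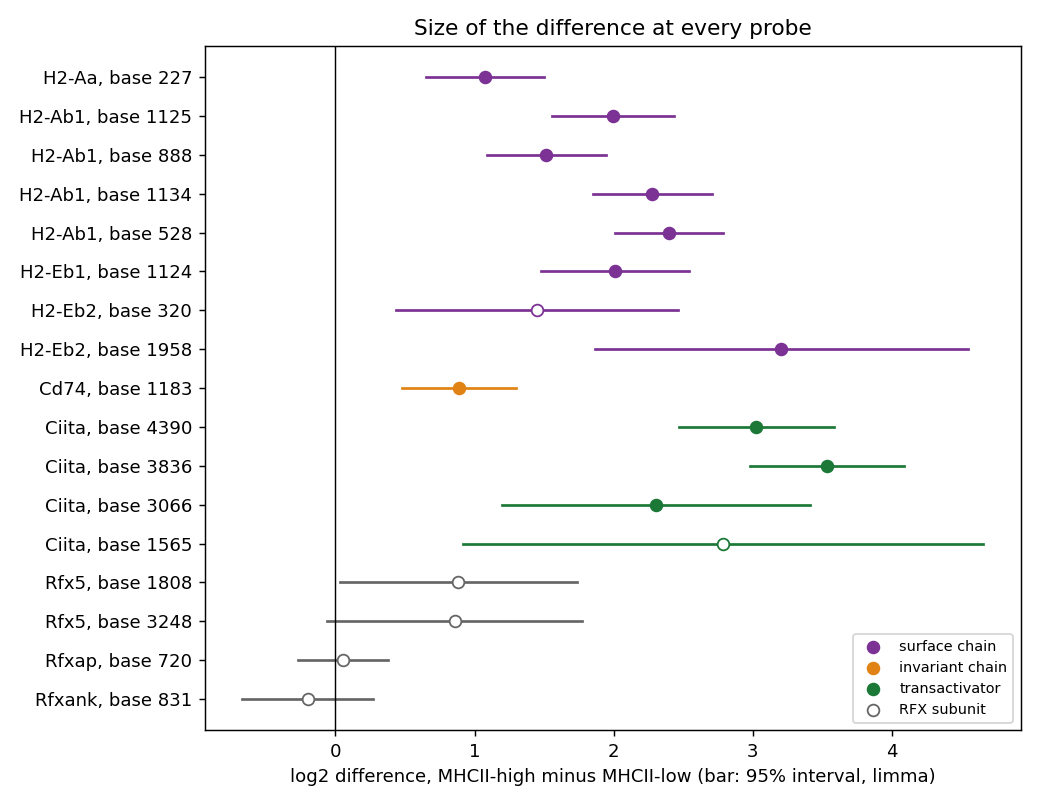
Log2 difference, MHCII-high minus MHCII-low, at each of the 17 probes with the 95% interval from limma's fit of all probes; filled points passed an adjusted p of 0.05 and colours mark the role of the gene. The H2-Eb2 probe from base 1958, at background in MHCII-low, has no measured size. That probe and the Ciita probes from bases 3066 and 1565 passed the filter on dim probes only with the help of MHCII-high arrays. Their fill and their intervals are therefore not read as tests. The 2 bright Ciita probes lie at 3.03 and 3.53, the H2-Ab1 probes between 1.51 and 2.40, Cd74 at 0.89, and Rfxap and Rfxank around 0.

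The 3 RFX subunits, the DNA-binding partners of CIITA, did not pass. Rfxap, the associated protein of the complex, was bright and steady, at 3.71, 3.45, 3.42 and 3.55 in MHCII-high, against 3.43, 3.63, 3.33 and 3.53 in MHCII-low (log2 levels). Its difference was 1.04-fold with a 95% interval of 0.834 to 1.29 (limma adjusted p = 0.870). Rfxank, the ankyrin repeat subunit, read -0.49, -0.45, -0.44 and -0.92 in MHCII-high, against -0.20, -0.87, -0.22 and -0.21 in MHCII-low, a difference of 0.871-fold (0.630 to 1.20, adjusted p = 0.639). For both genes the groups overlapped, and the intervals leave out a change as large as that of H2-Ab1.

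Rfx5, the subunit that holds the DNA-binding domain, was dim and wider in spread. Its brightest probe gave -2.59, -2.45, -2.09 and -3.65 in MHCII-high, against -2.98, -4.09, -3.37 and -3.88 in MHCII-low (1.85-fold, 95% interval 1.03 to 3.32, adjusted p = 0.233). The second probe gave -2.70, -3.07, -2.08 and -3.83 in MHCII-high, against -4.50, -3.20, -3.77 and -3.65 in MHCII-low. MHCII-high 20442 was the lowest MHCII-high sample at both probes and lay within the MHCII-low range. Rfx5 had the same mean difference as Cd74 on the log2 scale, 0.88 against 0.89, with an SD among MHCII-high samples of 0.67 against 0.29. With normexp background correction its difference was 0.33 (adjusted p = 0.346).

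Unequal shifts were tested within arrays. For each of 36 pairs of genes the difference of their log2 levels on the same array was compared between the groups by a two-sided exact permutation test over 70 assignments of the 8 arrays, with p-values adjusted over the 36 pairs. This difference does not depend on how arrays are scaled. The smallest p this design allows is 0.0286, and 22 pairs reached it (adjusted p = 0.0468), so every call rests on complete separation of the groups. With 1 sample left out the adjustment needs 21 pairs at the smallest p, so 0 pairs passed in 7 of 8 such sets, although 18 to 20 had an unadjusted p of 0.0286, and 21 passed without MHCII-high 20435. All 22 differences kept their direction in the 8 sets.

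By the brightest probe of each gene, Ciita shifted more than each of the other 8 genes. Its shift exceeded that of H2-Ab1 by 1.03 on the log2 scale (interval of shifts not rejected 0.46 to 1.80), that of Cd74 by 2.14 (1.38 to 3.29) and that of Rfxap by 2.97 (2.04 to 3.89). H2-Ab1 shifted more than H2-Aa by 0.92 (0.27 to 1.27) and more than Cd74 by 1.11 (0.55 to 1.49). H2-Eb1 likewise shifted more than Cd74, by 1.12 (0.42 to 1.48). H2-Ab1 and H2-Eb1 differed by -0.01 (-0.33 to 0.22, exact permutation adjusted p = 0.970), and H2-Aa and Cd74 by 0.19 (-0.07 to 0.34, adjusted p = 0.0823). By these probes H2-Aa and Cd74 had the smaller shifts among the 5 called genes. Each of them had only 1 probe, and the 4 probes of H2-Ab1 alone ranged from 1.51 to 2.40. Unequal shifts of 2 genes therefore cannot be told apart from unequal response of their probes.

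The H2-Ab1 comparisons depend in size on the probe. With its base 888 probe, a choice made after the data were seen, H2-Ab1 still shifted more than H2-Aa and Cd74, by 0.44 and 0.63, and less than H2-Eb1, by -0.50, each with an adjusted p of 0.0468 in the exact permutation test. It differed from Rfx5 by 0.63 (adjusted p = 0.465), where the brightest probe gave 1.11 (0.0468).

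**Figure D3:**
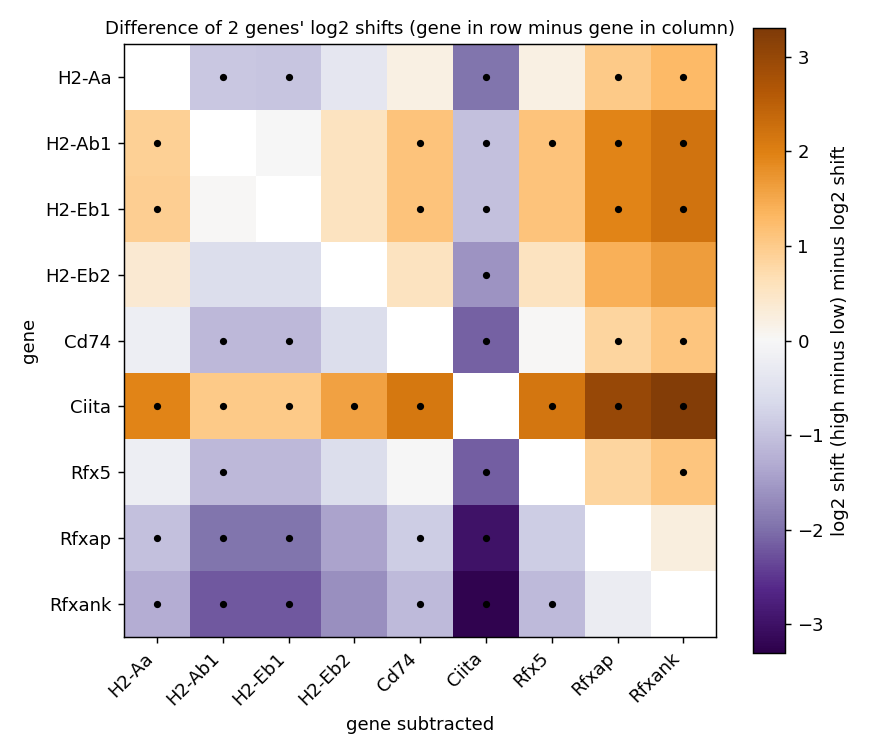
Shift (MHCII-high minus MHCII-low, log2) of the gene in the row minus that of the gene in the column, by brightest probe; dots mark the 22 of 36 pairs with an adjusted p of 0.05 or less in the exact permutation test. The Ciita row is positive throughout, from 1.02 against H2-Eb1 to 3.23 against Rfxank, and each of its cells has a dot.

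Within label numbers the 5 called genes were higher in MHCII-high for all 4 numbers. The log2 difference ranged over the numbers from 2.56 to 3.70 for Ciita, 1.46 to 2.37 for H2-Ab1, 1.23 to 2.43 for H2-Eb1, 0.89 to 1.40 for H2-Aa and 0.71 to 1.06 for Cd74. Number 20439 gave the lowest value for H2-Aa, H2-Ab1, H2-Eb1 and Cd74, and number 20442 the highest for all 5 genes. All arrays lay on 1 slide in 2 rows. Row 1 held 1 MHCII-high array and row 2 held 1 MHCII-low array, so a within-row value has 1 array on one of its sides. Within rows 1 and 2 the difference was 2.49 and 3.68 for Ciita, 1.81 and 2.14 for H2-Ab1, 1.89 and 2.05 for H2-Eb1, 0.93 and 0.99 for H2-Aa, and 0.70 and 0.78 for Cd74. With the row as a block 3 of the 9 genes passed, Ciita, H2-Ab1 and H2-Eb1, against 1.07% of all genes higher in MHCII-high.

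Genes that act with these 9 were read from lists chosen with earlier results of these data known. Of 11 other class II pathway genes tested, 5 were higher and 0 lower, against 2.68% and 2.25% of all genes, and the list median was 0.54. All 5 were chains of the peptide-editing molecules DM and O, which load or restrain the loading of class II: H2-Oa (log2 3.34), H2-DMb2 (3.34), H2-Ob (2.71), H2-DMa (1.60) and H2-DMb1 (0.95). H2-Ob also had a probe at -0.48, and H2-DMb1 one at 0.41. The proteases that degrade the invariant chain did not pass, with Ctss at -0.10, Lgmn at -0.19 and Ctsl at -0.70. The reductase Ifi30 was at 0.08, Cd83, which protects class II from turnover, at 0.54, and the ubiquitin ligase March1 at -0.03.

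Partners of CIITA on class II promoters showed no called change. Among 10 such genes 0 passed in limma's fit in either direction, where 2.68% of all genes were higher and 2.25% lower. For 10 genes a count of 0 is near those shares. Unadjusted p was under 0.05 for 2 (Nfyb and Ncoa1), against 19.7% of all genes, and the median was -0.0029. The NF-Y subunits were at -0.0049 for Nfya, 0.39 for Nfyb and -0.10 for Nfyc, Creb1 at 0.10, the acetyltransferases Crebbp and Ep300 at 0.02 and -0.01, and the coactivator Ncoa1 at -0.47.

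Of 13 genes known to act upstream of Ciita, 2 were higher and 0 lower (median 0.23), against 2.68% and 2.25% of all genes. Irf4, an interferon regulatory factor of lymphocytes and some dendritic cells, had log2 levels of 0.98, 1.31, 1.10 and 0.81 in MHCII-high, against -1.34, -1.15, -0.77 and -2.31 in MHCII-low, and was 5.43-fold higher (limma adjusted p = 0.00561). Jak2, a kinase of the interferon gamma receptor, was 3.65-fold higher (adjusted p = 0.00123). A second Jak2 probe was well above background on only 4 of 8 arrays. Neither gene overlapped between the groups, which with MHCII-high above held for 7.48% of all genes. Among other genes of the interferon gamma route that did not pass, Irf1 was at -0.03, Ifngr1 at 0.29, Ifngr2 at 0.05 and Jak1 at -0.15. Socs1, which restrains that route, was at 0.92 (adjusted p = 0.0602) and Prdm1, a repressor of Ciita, at 0.65 (0.0736). Both passed with normexp background correction, at 0.75 and 0.68.

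Among the markers of other cell types, those of dendritic cells were mostly higher in MHCII-high. Of 10 dendritic cell markers 9 were higher in MHCII-high, against 2.68% of all genes, with a median of 2.88. Their mean log2 level was -0.21 to 1.10 in MHCII-high, against -2.73 to -2.06 in MHCII-low. Xcr1 alone did not pass (2.71, adjusted p = 0.221) and was well above background on 3 MHCII-high arrays and 1 MHCII-low array. Flt3 was at 4.47 with a second probe at 0.25, Clec9a at 3.86, Ccr7 at 3.53 and Zbtb46 at 1.74. Of 7 B cell markers 2 were higher, among them Fcrla, which was above background on 4 MHCII-high arrays and 1 MHCII-low array. Fcrla thus passed the filter on dim probes only with the help of MHCII-high arrays, and its call is not read as a test. Ms4a1 was at -0.19 with a second probe at 1.87. The mean level of the B cell markers was -0.51 to 0.03 in MHCII-high, against -1.87 to -1.11 in MHCII-low. Dendritic cells and B cells both express Ciita and class II. The filter required each of these 17 markers to be well above background on at least 4 arrays. Their part in the class II differences was not tested.

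Of 7 macrophage markers 1 was lower and 0 were higher, against 2.25% and 2.68% of all genes. The lower marker was Adgre1 (-1.69), a surface receptor widely used to mark mouse macrophages. The mean level of the 7 was 3.19 to 3.63 in MHCII-high, against 3.72 to 4.16 in MHCII-low. T cell markers had 0 of 4 called in limma's fit, where 2.68% of all genes were higher and 2.25% lower. Of these 4, 1 had an unadjusted p under 0.05 (19.7% of all genes). Of 4 epithelial markers 1 was higher, against 2.68% of all genes. It was Cdh1 (1.73), which some dendritic cells also make. Another epithelial marker was at 1.84 without passing (limma adjusted p = 0.0705), and the rest were at 0.0043 and -0.026. In bulk samples of sorted cells, more cells of a kind and more RNA per cell cannot be told apart.

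**Figure D4:**
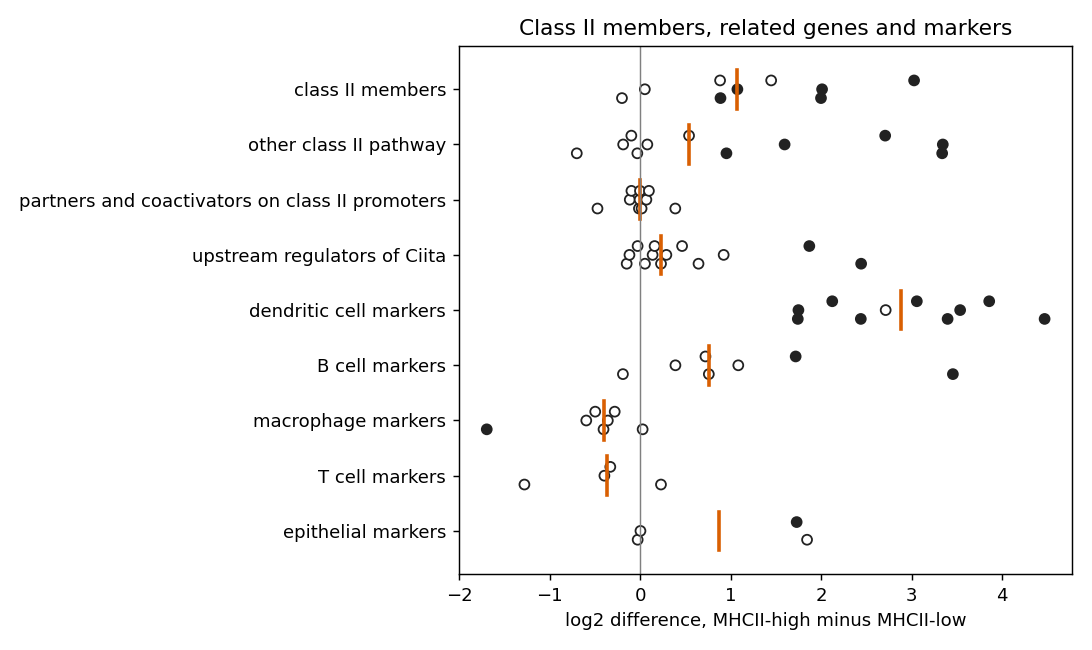
Log2 difference, MHCII-high minus MHCII-low, of each gene at its brightest probe for the 9 class II members, the related lists and the cell type markers; filled points passed an adjusted p of 0.05 in limma's fit of all genes and bars are list medians. The partners on class II promoters sit around 0, while 9 of 10 dendritic cell markers are filled and lie from 1.74 to 4.47. The fill of the B cell marker Fcrla, which passed the filter on dim probes only with the help of MHCII-high arrays, is not read as a test.

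The genes whose levels most resembled those of Ciita over the 8 arrays included Kmo, an enzyme of tryptophan breakdown that is also among the dendritic cell markers, Rtn1, a reticulon, and Cacng6, a calcium channel subunit, beside a probe named only by a genome interval. Pearson's r was 0.991 to 0.997 for these 4. For H2-Ab1 the 5 most alike were the chemokine Ccl17, the protease Napsa, Rtn1 and the surface protein Plet1, with another such interval probe, at r of 0.991 to 0.998. These values describe 8 arrays that share the group difference, and the 8 genes or probes given here were higher in MHCII-high, with log2 differences of 1.84 to 4.15.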

How the data were processed

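Total RNA was amplified (WTA2) and labelled with Cy5 per the labels' protocols. The authors' deposited intensity of each spot is linear and in 1 colour, read by Agilent Feature Extraction, version 11.5.1.1 in the submitters' processing notes, background-subtracted, detrended and with surrogates for dim spots per the file headers. Flags for outlier, saturated and well above background spots are those of the deposited files. The authors' deposited series table holds log2 values, correlated at 0.999998 or more per array with a quantile normalization of these signals, and how it was made is not given in the sources used here. Control spots (3671) and outlier spots (67 to 160 per array) were left out. Log2 processed signals were taken relative to the 75th percentile of the array, and spots of a probe were averaged. Genes took the brightest probe among those well above background on at least 4 of 8 arrays, named by RefSeq (GRCm38.p6) where an identifier or symbol matched and by the files otherwise. The 9 genes were matched by the name in the files. Coordinates of probes were copied from the files (mm9), without an exon annotation. Groups were compared with limma 3.58.1 in R 4.3.3 without covariates, two-sided, with Benjamini-Hochberg adjustment over all genes and a threshold of 0.05, a procedure tested on simulated data with known changes. Named genes are the 9 members with every probe, the listed genes past the threshold with up to 4 others a list (a few more are named), and the 5 genes most correlated with Ciita and with H2-Ab1. A few genes that this rule names are not reported here. The members and lists were chosen with earlier results of these data known. The number of arrays limits the precision.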

Additional observations from a re-analysis of the deposited data

Results flagged for a closer look

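Values far from the other 3 samples of their group were sought in 74 groups of 4, where chance marks about 1 in 20 by a gap beyond Dixon's 95% critical value, and 4 were found. MHCII-low 20439 read 3.28 at the H2-Ab1 probe from base 528, with the others of its group at 2.70 to 2.78, and 0.09 at the Ciita probe from base 3836, with the others at -0.73 to -0.68 (log2 levels). The same sample was also the highest of its group for H2-Eb1. For Rfxank, MHCII-high 20442 read -0.92, with the others at -0.49 to -0.44, and MHCII-low 20436 read -0.87, with the others at -0.22 to -0.20.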

How the results depend on the processing

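Over 17 other settings Ciita, H2-Ab1 and H2-Eb1 kept direction and call, and no called gene of the 9 changed direction. H2-Aa (0.96) and Cd74 (0.74) lost theirs with the slide row block, and Cd74 also with the label number as replicate block (0.89, adjusted p = 0.0521), which moved the count over all genes to 802 (474 higher, 328 lower). The slide row block gave 455 (300 and 155) and 3 of the 9 genes, and testing every probe by itself 2139 (1139 and 1000). Without 1 sample the count was 546 to 1157 (304 to 656 higher, 242 to 518 lower), the class II count 3 to 5, with 3 without MHCII-low 20435, and the pairs 0 to 21, while log2 differences were 0.92 to 1.15 for H2-Aa and 0.77 to 0.97 for Cd74. Averaging probes gave H2-Eb2 at 2.33, a mean that includes the probe at background in MHCII-low and so is no measured size, and 1 lower pathway gene, Ctsl (-0.93). Sign flips within label numbers, also a replicate block, gave 0 pairs, with 0.125 the smallest exact p possible. Samples of a number correlated in their deviations at 0.084 (20442) to 0.211, each best with its own number, and samples of different numbers at 0.0746 at most. This hints at pairing, which the labels do not state and the fit without covariates does not use. Over the genes of the other lists and the 17 settings, 1085 values stayed on their side of the threshold, most of them without a call, 23 lost a call and 11 gained one.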

Other observations

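The probe of H2-Ea-ps, the E alpha gene whose chain would pair with that of H2-Eb1, stood well above background on 0 of 8 arrays, at mean log2 levels of -7.53 in MHCII-high and -7.57 in MHCII-low, while H2-Eb1 stood at 5.61 in MHCII-high and 3.60 in MHCII-low. Some mouse haplotypes make no E alpha chain, and the haplotype of these mice is not given in the labels.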
